A study of Mus musculus with 6 samples.

Results

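Ferroptosis is a form of cell death in which iron-driven peroxidation of membrane lipids outruns the enzymes that repair it. Repair rests mainly on Gpx4, which uses glutathione to reduce lipid peroxides, and glutathione in turn depends on imported cystine. A parallel arm keeps ubiquinone reduced so that it can trap lipid radicals, and DHODH, the mitochondrial enzyme of pyrimidine synthesis that AG636 inhibits, also passes electrons to ubiquinone. Iron enters most cells by transferrin receptor, is stored in ferritin and is released from haem by haem oxygenase, and iron regulatory proteins set the amounts of receptor and ferritin by binding hairpins in their mRNAs.

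The genes of this system read here in leukemia cells were Gpx4, Aifm2, Slc7a11, Gclc, Gclm, Acsl4, Tfrc, Fth1, Ftl1 and Hmox1. They were chosen by name and each was found by its gene symbol, 10 of 10, among the 54838 genes counted. All 10 also passed the filter on low counts that left 11092 genes for testing. A further 112 genes of glutathione, lipid, iron, haem and NRF2 biology were followed as lists, and 97 of these passed the filter.

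The cells were I1DN acute myeloid leukemia cells, a mouse model on the C57BL/6 background whose genotype is given as IDH1R132H, DNMT3AR882H and NrasG12D. Both groups carried all 3 alleles, which had been introduced together as constructs into fetal liver stem and progenitor cells, so they were expressed from those constructs rather than from the host loci. Sublethally irradiated congenic Ptprca recipients received thawed leukemia cells taken from the spleen or marrow of a diseased mouse, and whether the 6 recipients shared 1 donor leukemia is not given in the sources used here, nor is their age. Recipients were given vehicle (3 samples) or AG636 by oral gavage b.i.d. at 100 mg/kg (3 samples). The study counts 3 mice in each group. The duration of treatment is not in the labels and differs between the study's own descriptions. Cells were sorted from bone marrow and spleen. The study describes the sort gate as cKit+CD11b- in one place and as cKit-high CD11b-low in another. Libraries counted the 3′ ends of polyadenylated RNA, so a count does not scale with gene length.

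Totals ran from 4634963 to 7906589 counts per sample, and 3 counts correspond to between 0.392 and 0.637 CPM, the unit used throughout for counts scaled to a common library size with TMM. No sample stood far apart in depth. The gate was checked on its own genes. Kit lay between 31.8 and 46.3 CPM in the 6 samples, with a log2 fold change of 0.15 ± 0.17 (SE). Itgam, which encodes CD11b, was 12.1, 18.3 and 27 CPM in the vehicle samples and 60.1, 31.3 and 41.2 CPM with AG636, and it rose (log2 fold change 1.21, Benjamini-Hochberg adjusted p = 0.0219 by the quasi-likelihood test of edgeR). In bulk samples, fewer cells of a type and less RNA per cell cannot be told apart.

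The hairpins by which iron regulatory proteins bind ferritin and transferrin receptor mRNA are shown first. Tfrc and Fth1, which are set against each other below, carry them. Transcripts of GENCODE vM21 (GRCm38) were searched on the sense strand for a C, 5 bases, the loop CAGTGN and 5 bases that pair back to the first 5, with G-T pairs allowed. Such a match was found in 294 of 21877 genes (1.34%) and in 6 of the 122 listed genes. The loop is in capitals in each 30-base stretch, written 5′ to 3′ on the gene's strand.
Fth1 5′ UTR, chr19:9982732-9982761, plus strand: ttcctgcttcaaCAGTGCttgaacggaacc
Ftl1 5′ UTR, chr7:45459778-45459807, minus strand: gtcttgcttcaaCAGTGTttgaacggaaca
Slc40a1 5′ UTR, chr1:45925464-45925493, minus strand: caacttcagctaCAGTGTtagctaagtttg
Tfrc 3′ UTR, chr16:32631219-32631248, plus strand: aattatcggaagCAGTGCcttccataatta
Tfrc 3′ UTR, chr16:32631598-32631627, plus strand: cattatcgggagCAGTGTcttccataatgc
Tfrc 3′ UTR, chr16:32631663-32631692, plus strand: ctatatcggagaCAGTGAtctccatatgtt
Tfrc 3′ UTR, chr16:32631710-32631739, plus strand: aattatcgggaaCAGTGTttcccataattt
Fth1, Ftl1 and Slc40a1 each held 1 match before the coding sequence, and Tfrc held 4 after it. The other matches among the listed genes, in Keap1 and Secisbp2, lay in or across coding sequence. These are matches of letters, and binding was not measured here.

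With AG636, 2 of the 10 genes fell and both are importers: Slc7a11, the cystine carrier, and Tfrc, the transferrin receptor. The 8 others, among them Gpx4, both subunits of glutamate-cysteine ligase, Acsl4, both ferritin chains and Hmox1, did not pass the test in either direction. Of all genes tested, 11.0% fell and 10.3% rose at an adjusted p under 0.05, so 2 of 10 genes lower and 0 of 10 higher is to be read beside those shares. At an unadjusted p under 0.05 the count of higher genes was also 0 of 10, with edgeR, with DESeq2 and with limma-voom. The median log2 fold change of the 10 genes was -0.26, with 8 below 0 and 2 above 0, beside a median of 0.03 over all genes tested. The 3 AG636 samples lay below the 3 vehicle samples for 2 of the 10 genes, against 20.6% of all genes, and above them for 0 of 10, against 20.5% of all genes.

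**Figure D1:**
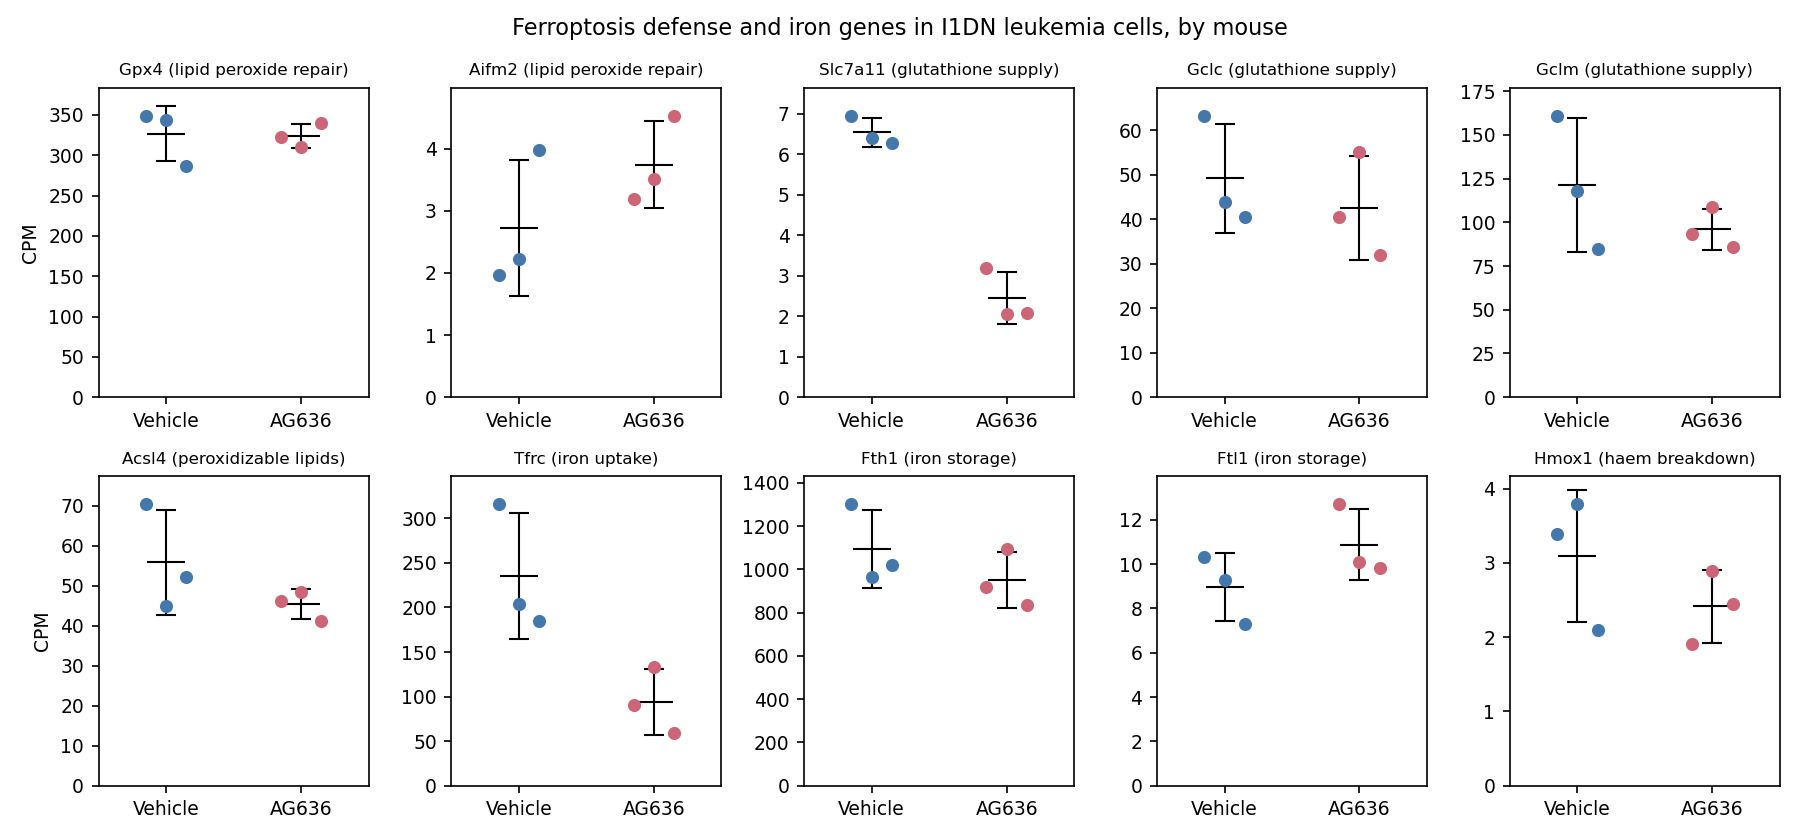
Level of each of the 10 genes in CPM (vertical axis, linear from 0, a scale of its own in each panel) in the 3 vehicle and 3 AG636 samples, 1 point per sample, with the group mean and its SD as bars. The groups are separate for Slc7a11 (6.27 to 6.95 against 2.06 to 3.19 CPM) and Tfrc (185 to 316 against 59.3 to 133 CPM) and overlap for the other 8 genes.

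Gpx4, the selenoenzyme that reduces peroxidized membrane phospholipids (chr10:80047166-80056439), was at 349, 344 and 287 CPM in the vehicle samples and 322, 310 and 340 CPM with AG636. The AG636 values lay inside the vehicle range. Its log2 fold change was -0.01 ± 0.12 (SE, n = 3 samples per group; 95% interval -0.27 to 0.25; adjusted p = 0.944 by the same edgeR test and adjustment, as for every adjusted p here). Reads of Gpx4 can also match near copies elsewhere, since 88.9% of the 50-base words in the last 500 bases of its transcript recur in 2 other genes. Those genes held 42 counts in all, against 10783 for Gpx4.

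Aifm2 (FSP1) reduces ubiquinone at the plasma membrane and works in parallel to Gpx4 (chr10:61715263-61739260). It was measured at a low level, with 103 counts over the 6 samples. Its values were 1.96, 2.22 and 3.97 CPM with vehicle and 3.19, 3.51 and 4.53 CPM with AG636, which overlap. The log2 fold change of 0.49 ± 0.38 (95% interval -0.36 to 1.34, adjusted p = 0.38) leaves changes of either sign possible at this depth.

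Slc7a11 encodes the transport chain of the cystine/glutamate antiporter, which brings in cystine for glutathione synthesis (chr3:49892526-50443614, minus strand). Its values were 6.95, 6.41 and 6.27 CPM in the vehicle samples and 3.19, 2.06 and 2.08 CPM with AG636. The vehicle samples sat close together, and the highest AG636 sample was below the lowest of them. Slc7a11 fell to 0.374 of its vehicle level (log2 fold change -1.42 ± 0.32, 95% interval -2.12 to -0.72, adjusted p = 0.0142). The counts behind this were 118 over the vehicle samples and 36 over the AG636 samples. Without AG636 replicate 3 the log2 fold change was -1.31 and the call was lost (adjusted p = 0.0614).

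Slc3a2, the heavy chain that carries Slc7a11 and several other amino acid transporters to the membrane, also fell, from 278, 248 and 284 CPM to 196, 206 and 187 CPM (log2 fold change -0.46 ± 0.11, adjusted p = 0.0197). This call was lost without AG636 replicate 1 (adjusted p = 0.0637) and without AG636 replicate 3 (adjusted p = 0.0756). The ratio of Slc7a11 to Slc3a2 within each sample does not depend on library scaling. On the log2 scale that ratio was lower with AG636 by a difference of -0.99, from -5.37 ± 0.12 (SD, n = 3) to -6.36 ± 0.37 (SD, n = 3), with no overlap of the groups. The exact two-sided permutation test gave 0.1, the smallest p that 3 against 3 samples allow. This ratio holds the fall of Slc7a11 itself and was chosen after values were seen.

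The enzyme that joins glutamate to cysteine is the first step of glutathione synthesis, and neither of its subunits passed the test. Gclc, the catalytic subunit (chr9:77754535-77794485), was at 63.3, 43.9 and 40.5 CPM with vehicle and 40.6, 55.1 and 31.9 CPM with AG636 (log2 fold change -0.21 ± 0.23, adjusted p = 0.533). Gclm, the modifier subunit (chr3:122245557-122270732), was at 161, 118 and 85 CPM with vehicle and 93.2, 109 and 86.1 CPM with AG636 (log2 fold change -0.34 ± 0.21, adjusted p = 0.268). In both genes the groups overlapped, and vehicle replicate 1 was the highest sample. Without vehicle replicate 3, the lowest Gclm value of its group, Gclm passed the threshold (log2 fold change -0.56, adjusted p = 0.0459). Exons of Gclm overlap those of Gm17494 on the opposite strand, which held 385 counts against 3637 for Gclm, and of Gm6061 on the same strand, which held 38. The log2 ratios of Slc7a11 to Gclc and to Gclm were lower with AG636 by differences of -1.23 and -1.16 (exact two-sided permutation p of 0.1 for each, the smallest possible). Both ratios hold the fall of Slc7a11 itself (-1.42) and were chosen after values were seen, so they are not separate support for it.

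Acsl4 activates polyunsaturated fatty acids, which then enter phospholipids as the substrate of peroxidation (chrX:142317993-142390535, minus strand). Its values were 70.4, 44.9 and 52.2 CPM with vehicle and 46.3, 48.5 and 41.2 CPM with AG636. The groups overlapped, with vehicle replicate 1 standing above the other 5 samples. The log2 fold change was -0.30 ± 0.18 (95% interval -0.70 to 0.10, adjusted p = 0.259).

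Tfrc takes up iron-loaded transferrin and is the main iron gate of proliferating and erythroid cells (chr16:32608920-32632794). Its values were 316, 204 and 185 CPM in the vehicle samples and 90.3, 133 and 59.3 CPM with AG636. Each AG636 sample was below each vehicle sample, and the samples of both groups were spread widely. Tfrc fell to 0.399 of its vehicle level (log2 fold change -1.32 ± 0.28, 95% interval -1.95 to -0.70, adjusted p = 0.0125). It kept its call in each of the 13 alternatives at 0.05 that gave it a value. These included the 6 that left out 1 sample, where log2 fold changes ran from -1.66 to -1.07. At the stricter threshold of 0.01 Tfrc was not called.

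Fth1, the ferritin heavy chain that oxidizes iron for storage (chr19:9982703-9985092), was at 1302, 965 and 1019 CPM with vehicle and 921, 1093 and 837 CPM with AG636. The groups overlapped and the log2 fold change was -0.20 ± 0.14 (95% interval -0.52 to 0.11, adjusted p = 0.328). With 33636 counts in all, Fth1 was the most deeply counted of the 10 genes. The ratio of Tfrc to Fth1 within a sample, on the log2 scale, was -2.04, -2.24 and -2.46 with vehicle and -3.35, -3.04 and -3.82 with AG636. The groups did not overlap, and the difference of their means was -1.16 (exact two-sided permutation p of 0.1, the smallest possible). The log2 fold change of Tfrc was -1.32 and that of Fth1 -0.20, so the difference mostly restates the fall of Tfrc. These 2 mRNAs carry the hairpins shown above at opposite ends, and whether the hairpins bear on the ratio was not tested.

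Ftl1, the ferritin light chain (chr7:45457944-45459884, minus strand), was at 10.3, 9.29 and 7.31 CPM with vehicle and 12.7, 10.1 and 9.82 CPM with AG636, values that overlap (log2 fold change 0.27 ± 0.24, adjusted p = 0.443). Its level is uncertain, because 80.9% of the 50-base words near its end recur in 15 other genes, which held 333 counts against 325 for Ftl1 itself. Hmox1, which opens haem and frees its iron (chr8:75093621-75100589), held 94 counts in all. Its values of 3.39, 3.79 and 2.09 CPM with vehicle and 1.91, 2.89 and 2.45 CPM with AG636 overlapped (log2 fold change -0.37 ± 0.38, 95% interval -1.21 to 0.47, adjusted p = 0.505). This interval leaves changes of Hmox1 of either sign possible at this depth.

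**Figure D2:**
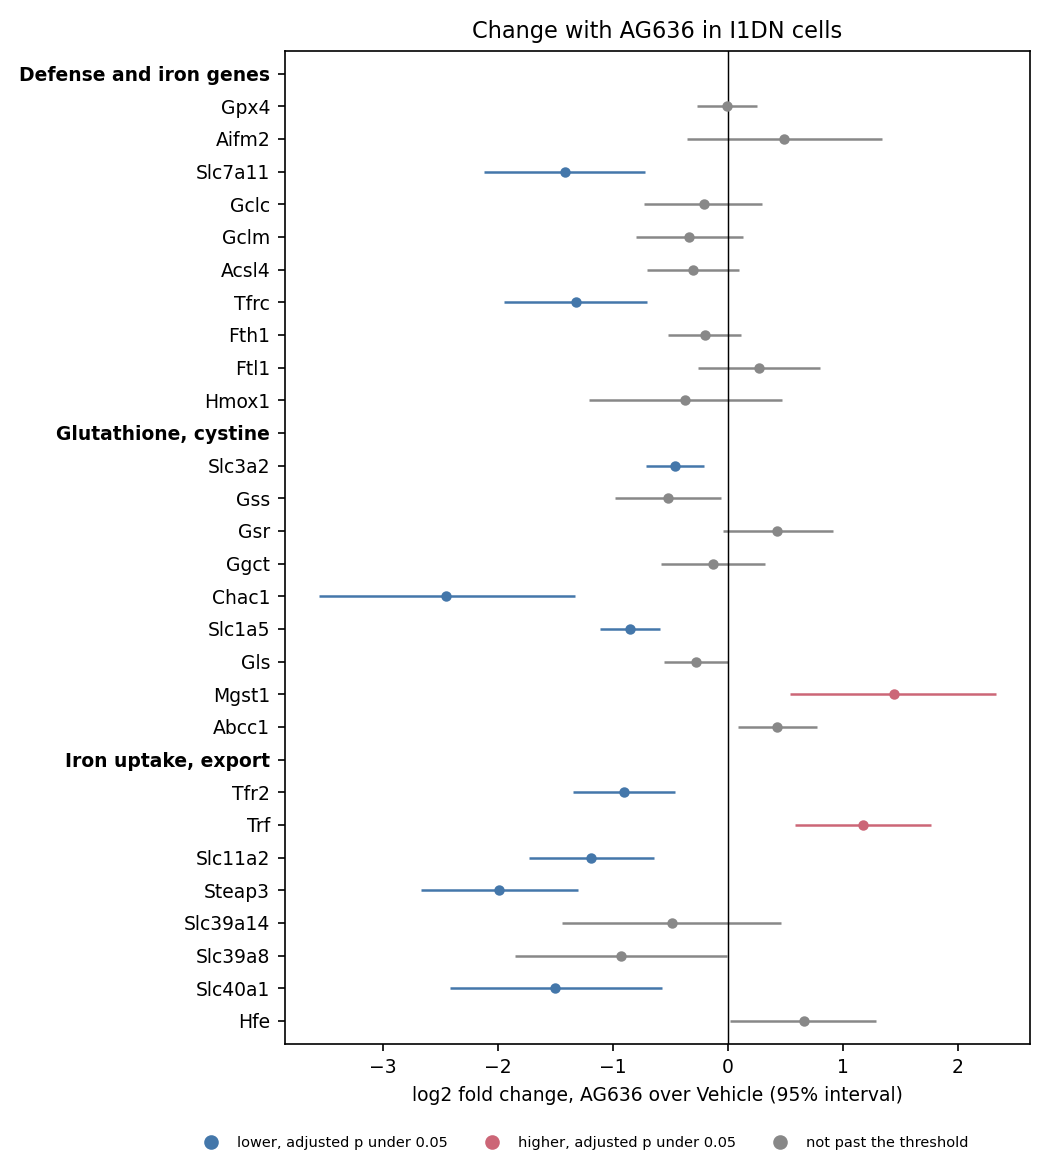
Log2 fold change, AG636 over vehicle (horizontal axis), with its 95% interval for the 10 defense and iron genes and for the tested genes of the glutathione and cystine list and of the iron uptake and export list. Colour marks an adjusted p under 0.05, blue for lower and red for higher. Among the 10 genes, only Slc7a11 (-1.42) and Tfrc (-1.32) are coloured, and in the iron list Steap3 (-1.99) lies farthest to the left.

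The genes around Slc7a11 were read from the list of glutathione and cystine supply, of which 9 of 12 were tested, 3 fell and 1 rose (median log2 fold change -0.28). Counts by list, here and below, are to be read beside all genes tested, of which 11.0% fell and 10.3% rose. Beside Slc3a2, Slc1a5, which imports glutamine, fell from 119, 119 and 107 CPM to 64.8, 63.1 and 64 CPM, with groups far apart relative to their spread (log2 fold change -0.85 ± 0.12, adjusted p = 0.0032). Chac1, which degrades glutathione, fell from 3.21, 2.88 and 5.43 CPM to 0.425, 1.03 and 0.566 CPM (log2 fold change -2.45 ± 0.50, adjusted p = 0.0114). Only 10 counts lie behind the 3 AG636 values of Chac1, and its call was lost without AG636 replicate 3 (adjusted p = 0.0505). Mgst1, a membrane glutathione transferase, rose from 1.78, 3.66 and 3.76 CPM to 12.5, 7.01 and 5.66 CPM (log2 fold change 1.44 ± 0.40, adjusted p = 0.0316).

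Slc7a11 and Chac1 are textbook targets of ATF4, the factor of the amino acid response, and their promoters are shown for the letters of its element. The 300-base RefSeq promoter windows (GRCm38.p6, 250 bases before to 50 after the start) were searched on both strands for TGATGNAAN, the C/EBP-ATF response element. It was present in 3.95% of 32851 windows. Of the 10 genes, 8 had a window and 1 of these, Slc7a11, held the element, with 2 matches. Each stretch below is 80 bases, written 5′ to 3′ on the gene's strand with the matches in capitals.
Slc7a11, chr3:50443634-50443713, minus strand: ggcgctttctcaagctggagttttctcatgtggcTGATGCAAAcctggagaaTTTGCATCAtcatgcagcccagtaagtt
Chac1, chr2:119351012-119351091, plus strand: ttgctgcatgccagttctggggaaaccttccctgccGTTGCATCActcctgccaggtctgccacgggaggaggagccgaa
The Slc7a11 matches face each other on opposite strands, and the Chac1 match is on the strand opposite to the gene. The antioxidant response element TGACNNNGC, searched in the same way, was in 12.4% of windows and in 1 of the 8, Gclm. The E-box CACGTG was in 7.15% of windows and in none of the 8. The only window of Slc3a2, which also fell, did not hold the ATF4 element. That window (chr19:8713848-8714147) lies inside the gene's extent (8706882-8723369, minus strand), so a start farther upstream was not searched. A match describes the letters of the window only. In MN cells, another mouse leukemia model, the study reports more ATF4 protein after AG636 in culture. It also reports ATF4 motifs enriched in chromatin that opened in MN cells of treated mice. The part of ATF4 in the change of Slc7a11 or Chac1 was not tested here.

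The list of lipid radical and peroxide defense had all 13 genes tested, of which 5 fell and 2 rose (median log2 fold change -0.22). Dhodh, whose protein AG636 inhibits, was at 62.4, 49.4 and 55.6 CPM with vehicle and 35, 28.3 and 31.7 CPM with AG636. The groups did not overlap, and Dhodh fell to 0.568 of its vehicle level (log2 fold change -0.82 ± 0.16, adjusted p = 0.0088). Prdx6, a peroxiredoxin that reduces phospholipid peroxides, fell from 696, 609 and 497 CPM to 356, 409 and 294 CPM (log2 fold change -0.77 ± 0.16, adjusted p = 0.0114). Mboat2, a lysophospholipid acyltransferase, was at 10.9, 3.01 and 3.13 CPM with vehicle and 1.7, 0.619 and 0.189 CPM with AG636, from 12 counts over the AG636 samples (log2 fold change -2.76 ± 0.73, adjusted p = 0.0268). Vehicle replicate 1 was the highest sample, and without it the log2 fold change of Mboat2 was -1.90 and not called (adjusted p = 0.0871), nor was it called without AG636 replicate 2 (adjusted p = 0.0569) or AG636 replicate 3 (-2.27, adjusted p = 0.0934).

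Genes of tetrahydrobiopterin synthesis, a further source of radical-trapping molecules, moved in both directions. Gch1, its first enzyme, rose (log2 fold change 0.81, adjusted p = 0.0408) and so did Pts, the next (0.64, adjusted p = 0.0365), while Spr, the last, fell (-0.56, adjusted p = 0.0271). Vkorc1l1, which reduces vitamin K, fell as well (log2 fold change -0.76, adjusted p = 0.0277). The list of selenoprotein synthesis, on which the Gpx4 protein depends, had 6 genes tested and 0 called in either direction, with 0 at an unadjusted p under 0.05 by edgeR, DESeq2 or limma-voom and a median of 0.00.

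Around Acsl4, the list of peroxidizable lipids and lipoxygenases had 11 of 15 genes tested, with 2 lower and 2 higher. Scd2, a desaturase that makes monounsaturated fatty acids, fell (log2 fold change -0.56, adjusted p = 0.0254), as did Pebp1, a scaffold of lipoxygenases (-0.41, adjusted p = 0.0267). Sat1, which acetylates polyamines, rose (0.77, adjusted p = 0.0163), as did Alox5, a lipoxygenase of myeloid cells (0.60, adjusted p = 0.0498).

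Iron transport was the list with the lowest median, -0.92 over 8 of 11 genes tested, of which 4 fell and 1 rose. Steap3, the reductase that frees iron in the transferrin endosome, was at 115, 79 and 43.9 CPM with vehicle and 20.6, 22.9 and 16.8 CPM with AG636, groups that do not overlap (log2 fold change -1.99 ± 0.31, adjusted p = 0.00433). Slc11a2, which carries that iron into the cytosol, fell from 101, 79.9 and 50.8 CPM to 27.2, 40.6 and 34.2 CPM (log2 fold change -1.19 ± 0.25, adjusted p = 0.0115). With Tfrc, these genes are steps of transferrin iron uptake, and each was lower in every AG636 sample than in every vehicle sample. Over the list, the AG636 samples lay below all vehicle samples for 4 of the 8 genes, against 20.6% of all genes tested. They lay above them for 2 of the 8, against 20.5%.

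Tfr2, the other transferrin receptor, fell too (log2 fold change -0.90 ± 0.20, adjusted p = 0.014), and so did Slc40a1, the iron exporter ferroportin. Slc40a1 went from 58.8, 31.7 and 18.4 CPM to 15.1, 16.5 and 7.17 CPM (log2 fold change -1.50 ± 0.42, adjusted p = 0.0306). Its size depends on vehicle replicate 1, without which the log2 fold change was -1.0 and not called (adjusted p = 0.083). Trf, transferrin itself, rose from 14.1, 24.3 and 21.5 CPM to 51.6, 29.7 and 54.4 CPM (log2 fold change 1.17 ± 0.27, adjusted p = 0.0155). Genes of import and of export fell, while the gene of the carrier protein rose.

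**Figure D3:**
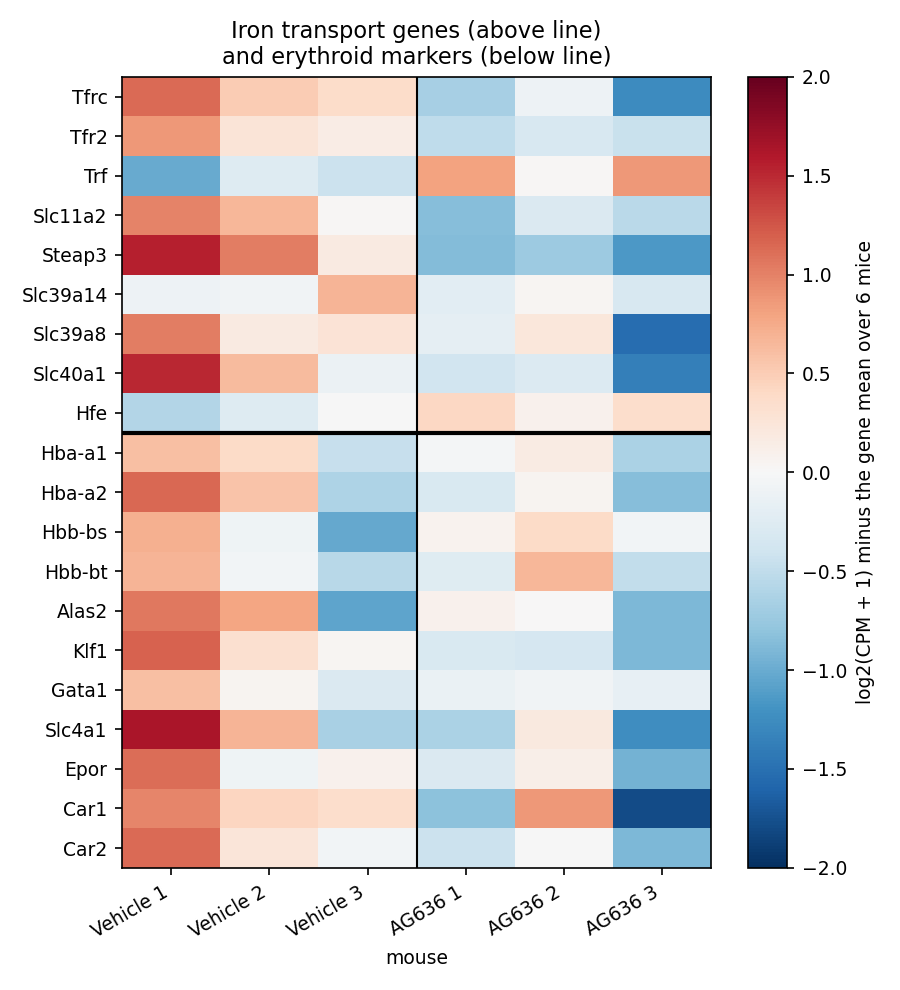
Level of Tfrc and the tested iron transport genes (above the horizontal line) and of tested erythroid markers (below it) in the 6 samples, as log2(CPM + 1) minus each gene's mean over the samples, red above and blue below that mean. Vehicle replicate 1 is red for most genes of both blocks. Vehicle replicate 3 is pale or red for Tfrc, Steap3 and Klf1 and blue for the haemoglobin genes.

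Erythroid cells use these transport genes heavily, so their markers are given beside them. Of 13 erythroid markers in the table, 12 were tested and 3 were called, each of them lower, among them Klf1 (log2 fold change -1.10, adjusted p = 0.0238) and Car2 (-0.94, adjusted p = 0.0491). None of the 13 was at 0 in every sample. The median log2 fold change of the 12 was -0.82, beside -0.92 for the iron transport list, and 11 of the 12 were below 0. The exception was Hbb-bs, an adult haemoglobin chain, with a log2 fold change of 0.11 (adjusted p = 0.842). The summed level of the markers was 6103, 3856 and 2351 CPM in the vehicle samples and 2964, 4047 and 2352 CPM with AG636, which overlap. Haemoglobin genes made up most of each sum. Vehicle replicate 3 had the lowest sum of its group, below AG636 replicates 1 and 2. Its Tfrc level was 185 CPM, against 90.3 and 133 CPM in those AG636 samples. Its Klf1 level was 102 CPM, against 80.9 and 78.4 CPM in the same samples. Klf1 was separated between the groups as Tfrc was, at 228, 124 and 102 CPM with vehicle and 80.9, 78.4 and 53.2 CPM with AG636. The AG636 samples lay below all vehicle samples for 2 of the 12 tested markers, against 20.6% of all genes tested. They lay above them for 0 of the 12, against 20.5% of all genes tested. Without vehicle replicate 1, the sample with the highest sum, Tfrc had a log2 fold change of -1.07 (adjusted p = 0.0254). The part of erythroid cells in the lower iron genes was not tested.

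Haem synthesis, the main use of iron in red cell precursors, had all 13 genes of its list with breakdown tested, of which 4 fell and 9 were not called (median log2 fold change -0.62). Among those that fell, Uros (log2 fold change -1.61, adjusted p = 0.0259), Ppox (-0.86, adjusted p = 0.0322) and Alad (-0.62, adjusted p = 0.0479) are enzymes of the synthetic path. Each of these calls was lost without vehicle replicate 1, where the adjusted p for Uros was 0.0814 and for Ppox 0.0953. Exons of Ppox overlap those of B4galt3 on the opposite strand.

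Ferritin turnover and iron sensing gave 1 call, a lower one, among 7 of 9 genes tested, beside 11.0% lower of all genes tested. Pcbp1, the chaperone that hands iron to ferritin, fell from 973, 915 and 1060 CPM to 710, 615 and 711 CPM (log2 fold change -0.53 ± 0.11, adjusted p = 0.0114). Ncoa4, the receptor that delivers ferritin for breakdown, had a log2 fold change of 0.28 ± 0.28 (adjusted p = 0.495), and Ireb2, an iron regulatory protein, one of 0.18 ± 0.15 (adjusted p = 0.415). Of the 15 genes of mitochondrial iron and iron-sulfur clusters, all tested, 2 fell, again beside 11.0% of all genes tested. Glrx5, a glutaredoxin of cluster assembly, went from 603, 399 and 387 CPM to 246, 290 and 201 CPM (log2 fold change -0.91 ± 0.19, adjusted p = 0.012). Slc25a37, the mitochondrial iron importer of erythroid cells, had a log2 fold change of -0.50 ± 0.14 (adjusted p = 0.0349).

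NRF2, encoded by Nfe2l2, drives Slc7a11, Gclc, Gclm, Fth1, Ftl1 and Hmox1, and Bach1 represses several of these genes. Nfe2l2 itself had a log2 fold change of -0.20 ± 0.13 (adjusted p = 0.306). Bach1 rose from 19.1, 24.2 and 19 CPM to 29.7, 29.3 and 36.6 CPM (log2 fold change 0.61 ± 0.18, adjusted p = 0.0383), a call that was lost in 7 of 13 alternatives. In the list of NRF2 regulators and other targets, 15 of 18 genes were tested, 1 rose (Bach1) and 2 fell, with a median log2 fold change of 0.08. Of all genes tested, 10.3% rose and 11.0% fell. The 2 that fell were Slc6a9, a glycine transporter (-2.20, adjusted p = 0.0182), and Tkt, transketolase of the pentose phosphate path (-0.48, adjusted p = 0.0412). Of the NRF2 targets among the 10 genes, Slc7a11 was called and the other 5 were not.

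**Figure D4:**
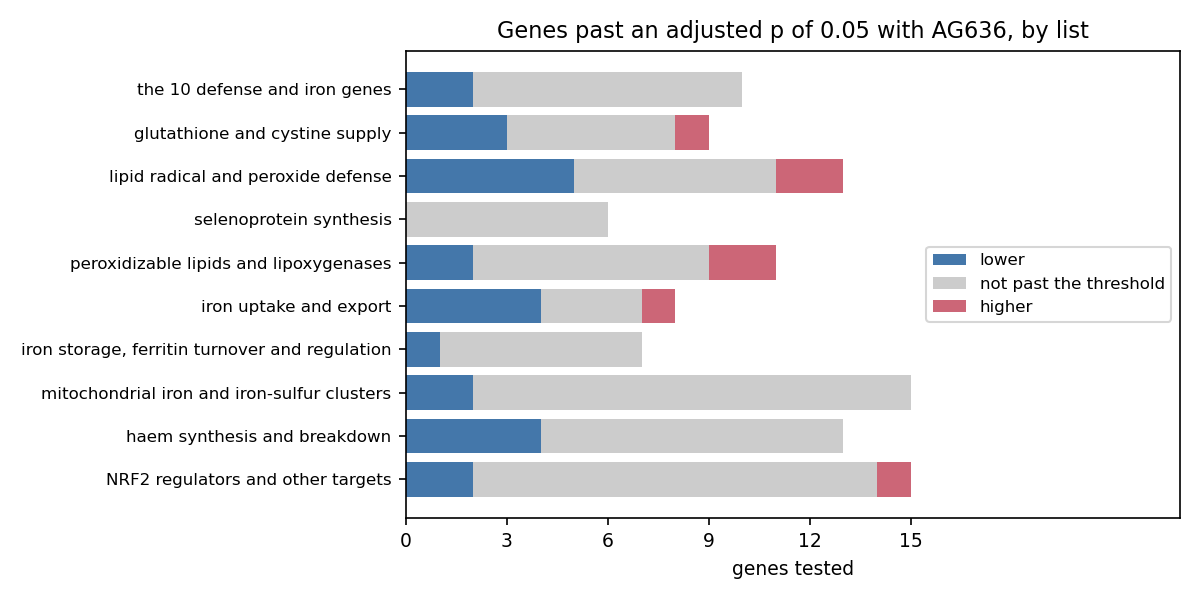
Number of genes tested (horizontal axis) in each list, split into those lower with AG636 (blue), not past an adjusted p of 0.05 (grey) and higher (red). Lower genes are 2 of the 10 defense and iron genes, 4 of 8 in iron uptake and export, 4 of 13 in haem and 0 of 6 in selenoprotein synthesis.

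Over the 9 lists together, 23 of 97 genes fell and 7 rose, beside 1222 and 1146 of 11092 genes tested. The median log2 fold change of the 97 was -0.20. The AG636 samples lay below all vehicle samples for 34 of the 97, against 20.6% of all genes tested. They lay above them for 13 of the 97, against 20.5% of all genes tested.

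Markers of more mature myeloid cells moved with the treatment as well. Of 10 neutrophil markers, all tested, 7 rose, and their summed level was 1082 to 2451 CPM with vehicle and 2990 to 6046 CPM with AG636. S100a8 had a log2 fold change of 1.0 (adjusted p = 0.0872). Of 13 macrophage markers, 7 were tested and 2 rose, with sums of 53.5 to 69 CPM and 131 to 161 CPM, while Adgre1 (adjusted p = 0.181) and C1qa (adjusted p = 0.269) did not pass. The 8 lymphoid markers, 2 of them tested and neither called, summed to 197 to 340 CPM and 268 to 512 CPM, and Cd3e and Cd79a were filtered out. In each of these lists 0 markers were at 0 in every sample. The part of such cells, or of maturing leukemia cells, in the change of Slc7a11, Tfrc or Alox5 was not tested.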

How the data were processed

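RNA was measured in sorted I1DN cells of 3 Vehicle and 3 AG636 samples, grouped and numbered by the submitters' labels. The authors deposited 1 table of raw counts per gene. Per the study's methods and the submitters' processing notes, QuantSeq 3′ libraries were quality-filtered, trimmed with cutadapt (1.9.1 in the notes), mapped to mm10 with HISAT2 (2.0.4) and counted with featureCounts of Subread (1.5.0-p3). The study's text names other cutadapt and Subread releases. Annotation release, strand setting, treatment of multi-mapping reads and use of molecular identifiers are not given in the sources used here, so reads of overlapping or near-identical genes may be split or shared, and the limit of 3 counts covers counting error only. Symbols came from GENCODE vM21, which names 54723 of 54838 identifiers and gives 98.7% of those it holds the same extent. All columns of per-sample values were used.

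Counts were filtered with filterByExpr (minimum count 10, minimum total 15), scaled by TMM and tested in edgeR 4.0.16 (R 4.3.3) with the quasi-likelihood test, group only, and Benjamini-Hochberg adjustment over all genes tested, with calls under 0.05. Standard errors are the log2 fold change over the square root of F. Single values were compared with an exact two-sided permutation test. Adjusted p-values set the difference between groups against the spread between samples. Whether the samples share a donor leukemia is not given. Pairs of replicates differed by more than sampling noise (chi-square per degree of freedom 6.68 to 15.7). The tests were tested on simulated data. Alternatives used DESeq2 1.42.0, limma 3.58.1, other scaling and filters, a replicate block, a threshold of 0.01 and leaving out each sample.

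The 10 genes and all lists were chosen with earlier results of these data known. Of each list, genes past the threshold were named, up to the 3 with the lowest adjusted p per direction, plus Dhodh, Slc3a2, Nfe2l2, Bach1, Ireb2, Ncoa4 and Slc40a1 whatever their values and 9 defining markers. Spr, Vkorc1l1 and Alad, the other called genes of their lists, the other markers named, the 4 ratios, the sequence searches and the search for shared words were chosen after values were seen. Some genes of the lists are counted but their values are not reported here.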

Additional observations from a re-analysis of the deposited data

How the results depend on the processing

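The lower calls of Slc7a11 and Tfrc were kept under DESeq2, limma-voom, both other scalings, both other filters and the replicate block. At an adjusted p under 0.01, 0 of the 10 genes, 0 higher and 3 lower pathway genes and 231 higher and 325 lower genes of all remained called. Leaving out 1 sample gave 399 to 1074 higher and 452 to 1298 lower genes of all, 1 to 3 lower and 0 higher of the 10, and 0 to 8 higher and 7 to 27 lower pathway genes. The pathway counts were 2 higher and 10 lower without vehicle replicate 1, 2 and 14 without vehicle replicate 2, 0 and 13 without AG636 replicate 1, and 1 and 7 without AG636 replicate 3. Those 4 samples also moved the counts over all genes by more than 1.5 times, to 524, 500, 605 and 399 higher and 701, 692, 630 and 452 lower. Fewer samples enter these fits. Gpx4, which was never called, changed sign with library size alone (0.08) and ranged from -0.12 to 0.02 when 1 sample was left out. Scaling by library size alone gave 1483 higher and 913 lower genes, against 1146 and 1222, with a median log2 fold change of 0.12 over all genes. The replicate block left 914 higher and 1046 lower genes, 2 lower of the 10, and 3 higher and 24 lower pathway genes. Same-numbered samples had correlations of -0.07, -0.19 and 0.24 in their deviations from the group means, and vehicle replicate 1 correlated best with AG636 replicate 2 (0.39), so the numbers do not pair the samples. Of the 23 lower pathway genes, 7 were called in each alternative at 0.05 that gave them a value (Dhodh, Slc1a5, Prdx6, Steap3, Slc11a2, Pcbp1 and Glrx5), and 16 lost the call in at least 1, as did all 7 higher ones. None of the 30 changed direction. Hmox1, Chac1, Mboat2 and Slc6a9 have no value under the filter of 10 counts in every sample. Genes under about 0.6 CPM cannot be resolved at this depth.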

Other observations

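Cth, which makes cysteine from cystathionine and so gives glutathione a source of cysteine other than Slc7a11, did not pass the filter on low counts and has no test. It was singled out after its values were seen. Its level was 3.57, 1.96 and 4.18 CPM in the vehicle samples and 1.27, 0.412 and 0.566 CPM with AG636, from 55 and 11 counts over the groups, and the groups did not overlap.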
